A study of Mus musculus with 2 samples.

Results

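The genes described here are 10 genes of the MHC class I loading pathway: Tap1, Tap2, Tapbp, Tapbpl, B2m, H2-K1, H2-D1, Erap1, Nlrc5 and Pdia3. They were chosen by name and matched to the gene symbols of the probe sets of an Affymetrix array, where a probe set is the group of probes summarised to 1 value. Of the 10, 8 had at least 1 probe set annotated to that gene alone, out of 19938 such genes on the array, and H2-K1 and H2-D1 were read only by 2 probe sets annotated to both of them and to LOC547349. RNA came from cortical thymic epithelial cells (cTECs) of NOD mice at day 7; the sources used here do not say how the cells were isolated. One array held RNA labelled as from 7 Aire transgenic mice (Tg), a semi-knockin strain in which the β5t (Psmb11) promoter drives Aire in the cortex. The other array held RNA labelled as from 5 control mice (non-Tg). Each group thus had 1 array and no replicates, so no p-value or SD between animals is given, and every comparison is between these 2 RNA pools.

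MHC class I molecules show peptides from inside the cell to CD8 T cells. Peptides cut in the cytosol are pumped into the endoplasmic reticulum (ER) by the transporter that Tap1 and Tap2 form, trimmed there by the aminopeptidase Erap1, and fitted into the groove of a heavy chain (H2-K1, H2-D1) paired with β2-microglobulin (B2m). Tapasin (Tapbp) bridges the heavy chain to the transporter together with the thiol oxidoreductase Pdia3 and the chaperone Calr, and the tapasin-like Tapbpl edits peptides outside that complex. Nlrc5 is the transactivator that acts on the promoters of many of these genes. In cTECs the pathway is known for the display of peptides cut by the thymoproteasome during positive selection of CD8 T cells.

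All levels below are log2 values as deposited, and each ratio is the Tg level minus the non-Tg level. None of the 8 members with a probe set of their own was 2-fold apart (a log2 ratio of 1) between the arrays; among the 11422 genes whose level reached an array's median on at least 1 array, 1.17% were. The 8 members all passed that filter. At 1.5-fold, 1 of the 8, Tap1, was apart, beside 7.86% of the genes past the filter. Their ratios ran from -0.21 to 0.84 with a median of 0.07, beside a median of 0.01 for all genes past the filter, and 6 lay above 0 and 2 below. Of all genes past the filter, 5778 lay above 0 and 5531 below. The members' median was 0.01 when Nlrc5 was taken at the median of its probe sets. Tap1 was the member farthest apart, followed by the brightest Nlrc5 probe set and Erap1. The other 5 lay within 0.25 of 0. As a scale for reading single ratios, the differences between 2 probe sets of 1 gene gave an SD of 0.302 per probe set over 658 genes. It leaves out how animals, pools and amplifications vary.

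**Figure D1:**
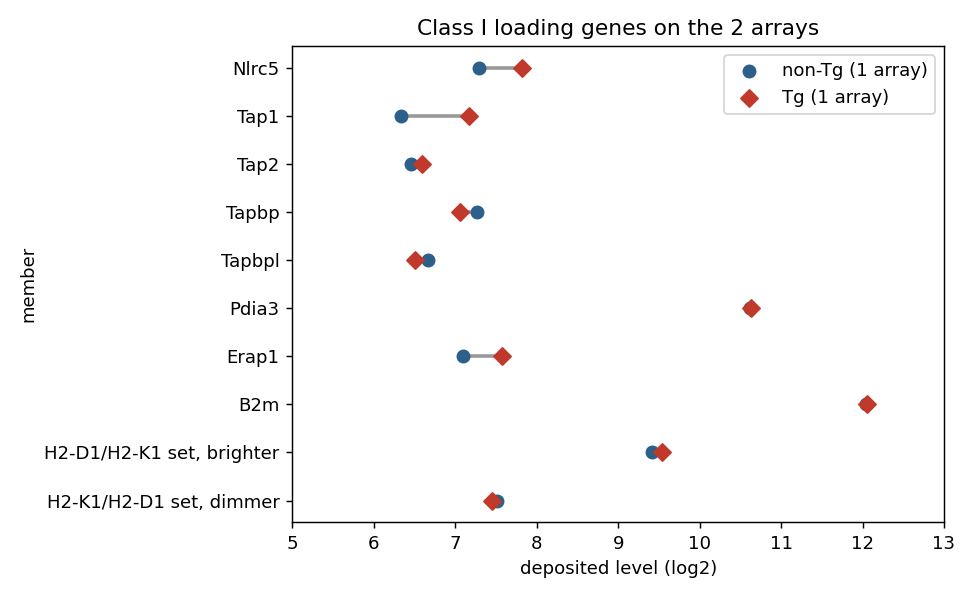
Deposited level (log2, horizontal axis) of each class I loading gene on the non-Tg array (circles) and the Tg array (diamonds), 1 array each, with the brightest probe set of the gene and, at the bottom, the 2 probe sets shared by H2-K1 and H2-D1. The gap is widest for Tap1 (6.33 in non-Tg, 7.17 in Tg), and the points of B2m and Pdia3 lie on top of each other; levels of different genes cannot be compared.

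The subunits of the peptide transporter differed in how far apart the arrays stood. Tap1 stood at 7.17 in Tg against 6.33 in non-Tg. This is a log2 ratio of 0.84 or 1.79-fold, and it was read by 1 probe set. Tap2, the partner subunit, had 6.59 in Tg against 6.46 in non-Tg, which makes 1.09-fold or a log2 ratio of 0.12, also from 1 probe set. Thus the Tg array was higher for both, by more than the SD of 0.302 for Tap1 and by less for Tap2. Among the 500 genes closest to Tap1 in mean level, 10 had a ratio as high, and the SD of their ratios was 0.370. Around Tap2 191 of 500 did. Over all 11422 genes past the filter, 170 had a higher ratio than Tap1, and 2.31% were at least as far from 0 in either direction.

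Tap1 lies between the immunoproteasome genes Psmb9 and Psmb8 in the RefSeq gene order of chromosome 17 (assembly GRCm38.p6), with Tap2 next. Psmb9, a subunit that replaces a standard catalytic subunit of the proteasome, had 11.12 in Tg against 10.88 in non-Tg (log2 ratio 0.23). Psmb8, another such subunit, had 7.68 and 7.47 (log2 ratio 0.22). Among the 500 genes nearest in level to each, 61 had a ratio as high as Psmb9 and 147 as high as Psmb8. The nearest MHC class II genes with a value on either side, H2-DMa and H2-Ob, had log2 ratios of -0.11 and -0.07. H2-DMb2 and H2-DMb1, between H2-DMa and Psmb9, had no probe set of their own. Among the genes read from H2-DMa to H2-Ob, Tap1 therefore had the highest ratio, and the neighbour whose start faces it did not reach it. This ranking covers that stretch only: the class II gene H2-Eb2, outside it, had a higher log2 ratio of 0.89.

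Tap1 and Psmb9 are transcribed away from each other from start sites that enclose 225 bases. This sequence is shown because both genes can be driven from it. It is the C57BL/6J reference in RefSeq, not the NOD sequence, at chr17:34187331-34187555 of GRCm38.p6, read on the plus strand towards Tap1. Capitals mark a CCAAT box and a TGACG core, the letters searched for the Y box and the X2 box of the class I promoter module.
Tap1-Psmb9: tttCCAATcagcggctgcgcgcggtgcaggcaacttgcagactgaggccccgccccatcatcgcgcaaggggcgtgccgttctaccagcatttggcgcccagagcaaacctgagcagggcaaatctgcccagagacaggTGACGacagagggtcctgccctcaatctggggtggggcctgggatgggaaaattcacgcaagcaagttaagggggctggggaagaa
The CCAAT box stands at positions -222 to -218 and the TGACG core at -86 to -82 relative to the Tap1 start. CCAAT was found on either strand in 33.8% and TGACG in 17.8% of 32851 RefSeq promoter windows of 250 bases before a start, so both are common. A match is a description of letters, not evidence of binding.

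Nlrc5, the class I transactivator, was read by 19 probe sets of its own, and they did not give 1 answer. The brightest had 7.82 in Tg against 7.29 in non-Tg, which makes 1.45-fold or a log2 ratio of 0.53. The next brightest had 6.65 in Tg against 6.91 in non-Tg, a ratio of -0.26. A probe set at 6.65 in Tg against 6.55 in non-Tg gave 0.10, and another, at 6.65 against 6.35, gave 0.30. Of all 19, 6 lay above 0, 10 below and 3 at 0, so the higher value of the brightest was not shared by most of the probe sets. These counts and the ratios below were taken after values under the floor of 4.80 were raised to it, which puts 2 of the 3 at 0.

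The other Nlrc5 probe sets past the filter were dimmer. They had log2 ratios of -0.04 (6.45 in Tg, 6.49 in non-Tg), -0.18 (6.12, 6.29), -0.21 (5.68, 5.90), -0.10 (5.72, 5.82), 0.05 (5.75, 5.70) and -0.29 (5.47, 5.76). The 10 past the filter had a median ratio of -0.07, and all 19 had a median of -0.02 and a range from -0.29 to 0.53. The 9 that did not pass lay between -0.18 and 0.33, and 3 of these had a value under the floor on at least 1 array, where ratios shrink towards 0. For Nlrc5 the direction thus depended on the probe set: with the brightest the Tg array was higher, with the mean of all 19 the ratio was -0.02. The SD over its 10 probe sets past the filter was 0.263, against a median SD of 0.125 among the 56 genes with at least 5 such probe sets, 22 of which had an SD as high, Nlrc5 included. Since they all measured the same RNA, these probe sets are not replicates.

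**Figure D2:**
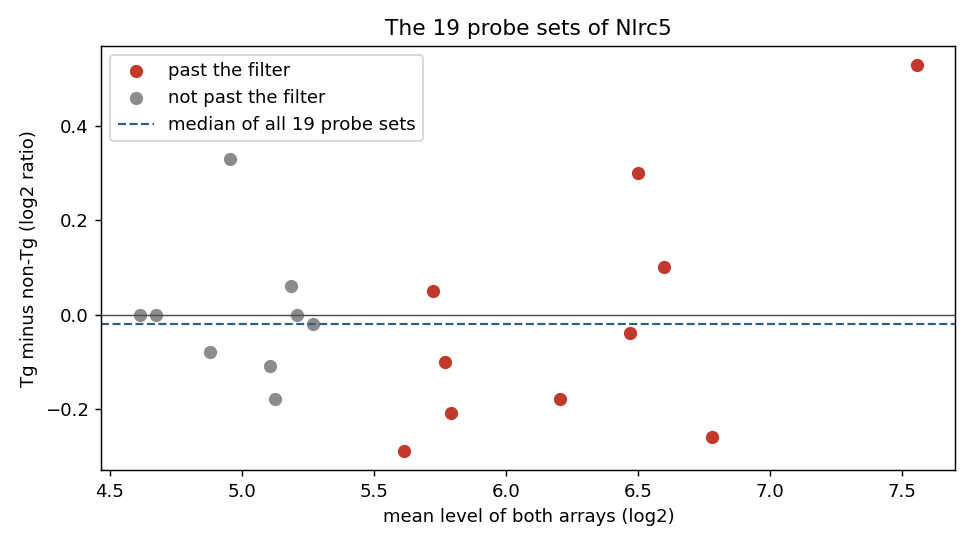
Each point is 1 of the 19 probe sets of Nlrc5, with its mean level over both arrays (log2) on the horizontal axis and its log2 ratio, Tg minus non-Tg, on the vertical axis; the dashed line is their median, -0.02. The brightest probe set stands at 0.53, and of the other 9 past the filter 6 lie below 0.

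The peptide editors Tapbp and Tapbpl had slightly lower values on the Tg array. Tapbp (tapasin) had 7.06 in Tg against 7.27 in non-Tg, a log2 ratio of -0.21. Tapbpl, the second peptide editor, had 6.51 and 6.67, a ratio of -0.16. Neither exceeded the SD of 0.302 per probe set, and 268 and 301 of the 500 genes nearest in level were at least as far from 0. A further pair of probe sets annotated to Tapbp also carried the ribosomal protein gene Rps3a1 and cannot be assigned to tapasin. They had 11.38 in Tg with 11.47 in non-Tg, and 11.36 with 11.45, a log2 ratio of -0.09 each.

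Pdia3, the oxidoreductase bound to tapasin, had 10.63 in Tg against 10.62 in non-Tg, a log2 ratio of 0.01. The lectin chaperones that work with it on new heavy chains were a little higher in Tg: Calr (calreticulin) had 9.42 and 9.17, a ratio of 0.25, and Canx (calnexin) had 10.83 and 10.64, a ratio of 0.19. None of these 3 exceeded the SD of 0.302. Ratios of the 500 genes nearest in level had smaller SDs: 0.201 around Pdia3, 0.272 around Calr and 0.200 around Canx. Of those 500, 467, 163 and 145 in that order were at least as far from 0.

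Erap1, the ER aminopeptidase that trims peptides to the length of the groove, had 7.57 in Tg against 7.10 in non-Tg. Its log2 ratio was 0.47, or 1.38-fold, from 1 probe set. Of the 500 genes nearest in level, 60 had a ratio as high, and the SD of their ratios was 0.360. The ratio exceeded the SD per probe set of 0.302 and did not reach 2-fold.

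The components of the class I molecule itself were alike on both arrays. B2m had 12.05 in Tg against 12.04 in non-Tg, a log2 ratio of 0.01, where the 500 genes nearest in level had ratios with an SD of 0.193. The brighter of the 2 probe sets shared by H2-K1 and H2-D1 had 9.54 in Tg against 9.42 in non-Tg, a ratio of 0.12. The dimmer had 7.45 and 7.51, a ratio of -0.06. The pair thus lay on both sides of 0, each within the SD per probe set, and cannot tell the heavy chains apart. Differences between NOD alleles and the sequence the probes were designed on were not tested.

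Promoter stretches of B2m and H2-D1 are shown to set the motifs of the genes of the class I molecule beside those upstream of Tap1; H2-D1 has no level of its own here. Both are the RefSeq reference of GRCm38.p6 from the first to the last match upstream of the start: chr2:122147548-122147638 for B2m and chr17:35262923-35263045 for H2-D1, both on the plus strand. Capitals mark every match to the letters searched.
B2m: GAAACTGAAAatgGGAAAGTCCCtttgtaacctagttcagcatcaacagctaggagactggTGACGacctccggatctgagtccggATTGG
H2-D1: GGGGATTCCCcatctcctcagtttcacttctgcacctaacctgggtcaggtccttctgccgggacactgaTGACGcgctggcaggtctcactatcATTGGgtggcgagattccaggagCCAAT
The letters searched were, beside CCAAT and TGACG, GAAA, 2 free bases and GAAA for an interferon-stimulated response element (ISRE), and for NF-κB either GGGA, 1 free base and TTTCC, or GGGG directly followed by ATTCCC. From left to right, B2m holds the ISRE letters, the NF-κB letters with the free base on the opposite strand, TGACG, and CCAAT on the opposite strand. H2-D1 holds the NF-κB letters without a free base, TGACG, and CCAAT on each strand. In both, TGACG comes before ATTGG, starting at -78 and -53 for B2m and at -101 and -76 for H2-D1. Upstream of Tap1 the order is the reverse and the letters lie farther apart, with CCAAT from -222 and TGACG from -86.

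H2-K1 has 2 overlapping windows. In the first, the 100 bases from the NF-κB letters to ATTGG matched those of H2-D1 at 89 positions, compared without gaps; the H2-D1 stretch printed runs on to a further CCAAT. Over the 32851 promoter windows, the ISRE letters were found in 2.98%, the NF-κB letters with a free base in 0.356% and those without in 0.0852%. A search for TTCNNNGAA, a gamma-activated site that reads the same on both strands, matched 7.02% of windows and Psmb8, but none of the members. Windows were found for 7 members: Tapbp held CCAAT on the opposite strand at 2 places, Pdia3 held CCAAT at 2 places and TGACG, and Erap1 held none of the letters searched. All motifs were searched on both strands, and no matches overlapped in the stretches printed. Absence of these letters in 1 window does not bear on the factors.

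**Figure D3:**
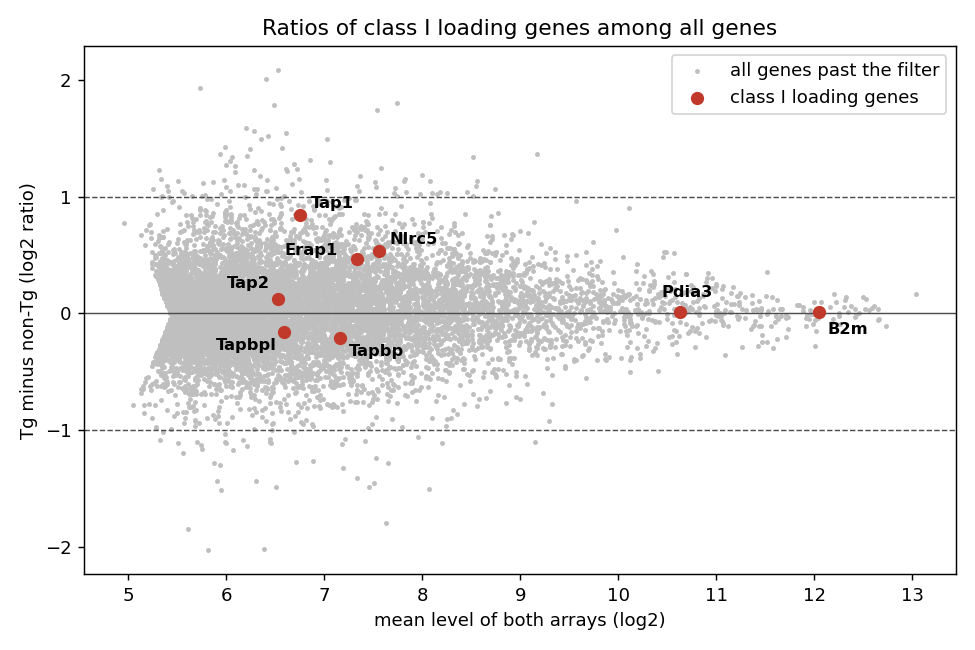
Mean level over both arrays (log2, horizontal axis) and log2 ratio, Tg minus non-Tg (vertical axis), for the 11422 genes past the filter (grey) and the 8 class I loading genes with a probe set of their own (red, Nlrc5 by its brightest); dashed lines mark 2-fold. All 8 lie inside the dashed lines, Tap1 nearest to them at 0.84, and B2m and Pdia3 lie at 0.01.

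Other class I and class I-like heavy chains had 15 of 22 listed genes with a probe set of their own, and 9 passed the filter. None was 2-fold apart, 6 ratios lay above 0 and 3 below, and the median was 0.08. H2-Q2 was the highest, with 6.34 in Tg against 5.87 in non-Tg (log2 ratio 0.48), then H2-M2 with 8.16 and 7.82 (0.34). H2-Bl was the lowest, with 5.74 and 6.31 (-0.58), then Mr1, which presents microbial vitamin metabolites, with 6.34 and 6.69 (-0.35). Probe sets shared by several such genes had ratios of 0.23 (H2-Q1 with H2-Bl), 0.18 (H2-Q6 with H2-Q8), 0.06 (H2-T23 with H2-T-ps), -0.02 (H2-T9, H2-T22 and H2-T10) and -0.06 (H2-T3 with H2-T18). Some H2-Q and H2-T genes are near-identical copies, so their signals can be mixed.

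Genes that supply peptides had 17 of 19 listed symbols measured and past the filter. Of the symbols not measured, Nrdc is another name of Nrd1, which was. None of the 17 was 2-fold apart, 12 ratios lay above 0 and 5 below, and the median was 0.09. Among the proteasome genes, the remaining immunoproteasome subunit Psmb10 had 8.78 in Tg against 8.85 in non-Tg (log2 ratio -0.07), while the Psmb9 and Psmb8 ratios given above were positive. Both subunits of the interferon-inducible proteasome activator were lower: Psme1 had 8.43 and 8.78 (-0.35) and Psme2 8.29 and 8.52 (-0.22). Psmb7, the standard subunit that Psmb10 replaces, had 9.93 and 10.32 (-0.40). Psmb5, the standard subunit that Psmb8 replaces, was higher in Tg, with 10.29 and 9.81 (0.48), and was named after its value was seen. Psmb11, whose promoter drives the transgene, had 10.51 and 10.15 (0.37); whether the semi-knockin leaves the Psmb11 gene itself intact is not stated in the labels. Of the cytosolic aminopeptidases, Blmh had 8.71 and 7.94 (0.78) and Lap3 7.26 and 6.77 (0.48). Hence genes acting before the transporter lay on both sides of 0.

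Genes of ER folding, translocation and degradation had 18 of 19 members measured and past the filter, with 14 ratios above 0, 4 below, 0 at 2-fold and a median of 0.18. Sel1l, an adaptor of ER-associated degradation, was the highest, with 8.15 in Tg against 7.29 in non-Tg (log2 ratio 0.85). Sec61a1, the channel subunit of the translocon, had 7.84 and 7.20 (0.63). Sec61b, another subunit of that translocon, was the lowest, with 8.83 and 9.75 (-0.92). Its 3 probe sets lay between -0.92 and -0.65. Syvn1, a ubiquitin ligase of ER-associated degradation, had 6.57 and 6.66 (-0.08).

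Transcription factors and signalling genes of the class I promoters had 25 of 27 members measured and 24 past the filter, with 15 ratios above 0, 9 below, 0 at 2-fold and a median of 0.08. Irf2 had 7.83 in Tg against 7.23 in non-Tg (log2 ratio 0.60), and Creb1, a factor that can bind the X2 box, had 8.40 and 7.96 (0.44). Irf1, an interferon-induced activator of class I genes, had 8.93 and 8.79 (0.14) by its brightest probe set. Its other probe set had 7.67 and 7.33 (0.34). Ifngr1, the ligand-binding chain of the interferon gamma receptor, was the lowest, with 8.63 and 9.37 (-0.74), followed by Irf3 with 5.94 and 6.42 (-0.47). Rfx5, a partner of Nlrc5 at the X box, had 5.54 and 5.81 (-0.28).

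Interferon-induced genes, many of which share inducers with Tap1, had 24 of 30 members measured and 23 past the filter. Of these, 16 ratios lay above 0 and 7 below, 0 were 2-fold apart, and the median was 0.09. The guanylate-binding protein gene Gbp7 was the highest, with 6.77 in Tg against 6.02 in non-Tg (log2 ratio 0.76), then the deubiquitinase gene Usp18 with 7.51 and 7.18 (0.33). Gbp3 had 5.95 and 6.17 (-0.22) and Mx2 6.29 and 6.50 (-0.21). MHC class II genes had 9 of 11 members measured and past the filter, with 6 ratios above 0, 3 below, 0 at 2-fold and a median of 0.06. H2-Eb2 had 6.23 and 5.34 (0.89), and the class II transactivator Ciita had 6.42 and 6.04 (0.38). H2-DMa and H2-Eb1 had ratios of -0.11 and -0.10.

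**Figure D4:**
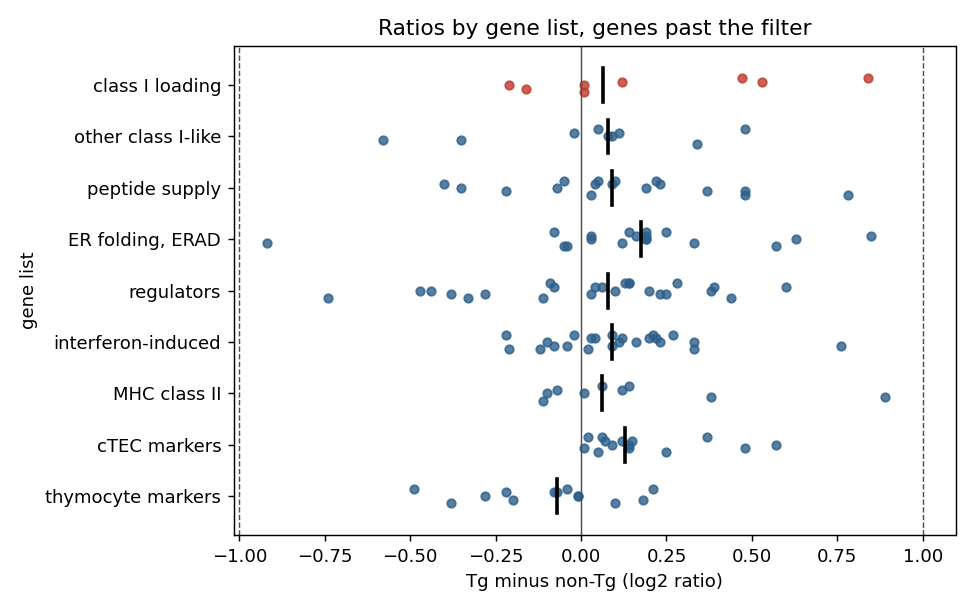
Log2 ratio, Tg minus non-Tg (horizontal axis), of each gene past the filter in 9 lists (rows); black bars are list medians and dashed lines mark 2-fold. No gene of these 9 lists lies beyond a dashed line. Not drawn are the markers of medullary epithelial cells, where Aire stood at 1.28, and those of the remaining cell types. The class I loading genes (red, top row) have a median of 0.07 and the thymocyte markers (bottom row) one of -0.07.

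The labelled cell type was set against marker genes. All 14 cTEC markers passed the filter, and all 14 had ratios above 0, from 0.01 to 0.57, with a summed linear level of 30903 in Tg and 28864 in non-Tg. That is a ratio of 1.07, beside 1.02 for the summed level of all genes. The brightest cTEC markers, Krt8, Ccl25, Ctsl and Krt18, add most to these sums. Psmb11 (log2 ratio 0.37), whose promoter drives the transgene, is 1 of the 14. Thymocyte markers were present on both arrays: 13 of 14 measured genes passed the filter, 3 ratios lay above 0 and 10 below, and their levels summed to 5589 in Tg against 6098 in non-Tg. Markers of medullary epithelial cells had 11 of 13 measured genes past the filter, with 7 ratios above 0 and 4 below. Only Aire, the gene that the transgene carries, reached 2-fold (7.33 in Tg, 6.06 in non-Tg, log2 ratio 1.28). It was read by 1 probe set, and whether that separates transgenic from endogenous Aire was not tested. The levels of the medullary markers, Aire included, summed to 3244 in Tg and 2792 in non-Tg. The brightest of them, Krt5 (10.73 and 10.39), adds most to these sums. Ctss and Cd86 had log2 ratios of 0.77 and 0.72, and Tnfrsf11a was the lowest at -0.39. Krt5 and these 3 were named after their values were seen.

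Of the markers of other cell types, 4 of 16 measured for macrophages and dendritic cells and 2 of 7 for B cells passed the filter. For endothelial cells 6 of 8 passed and for fibroblasts 5 of 8, beside 11422 of 19938 over all genes. In that order, the summed levels of these 4 lists in Tg and non-Tg were 604.6 and 603.7, 232.0 and 247.1, 688.2 and 699.8, and 840.3 and 714.1. Past the filter, the ratios of these 4 lists ran from -0.58 to 0.51. The Tg array was also higher for the female-specific Xist (7.78 against 6.28) and lower for the Y-linked Eif2s3y (6.40 against 7.36). The part of these marker differences in the ratios of Tap1 and Erap1 was not tested. In such pools fewer cells of a type and less RNA per cell cannot be told apart.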

How the data were processed

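RNA of cTECs was measured on 2 arrays, 1 per group; groups came from the genotype labels. Per the labels' protocols, 400 pg of RNA was amplified with the Ovation One-Direct system. The authors deposited log2 levels for 28856 probe sets, a scale read from their range (4.22 to 13.7). Not given in the sources used here are their background correction, normalization and summarisation. Genes were named from the platform annotation in GEO: 21789 probe sets had 1 symbol, 1621 several and 5446 none. Each gene took its brightest probe set. Values under the 25th percentile of all values (4.80) were raised to it, and a gene passed the filter at the 50th percentile of an array (5.43 for Tg, 5.45 for non-Tg). A rule of size, 2-fold, stood in for a test.

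The members and lists were chosen with earlier results of these data known. All members were named; of each other list, the genes beyond 2-fold or else the 2 highest and the 2 lowest past the filter, with fixed partners of the members. The members' ratios were recomputed with no floor, other scalings and other probe set rules. Software was numpy 2.4.6, pandas 2.3.3 and matplotlib 3.10.9 under Python 3.11.15, and the scripts were tested on simulated data. Promoters came from RefSeq (GRCm38.p6). With 1 array per group, precision is limited by the number of arrays.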

Additional observations from a re-analysis of the deposited data

How the results depend on the processing

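Of 99 recomputed values over 23 results, 93 stayed within 0.302 of the reported one (counts within 1.5 times) under no floor, arrays centred on their medians, quantile normalization, or other filters and probe set rules. Many of these could hardly have moved. Apart from Nlrc5, each measured member had 1 probe set of its own, so their mean was the same value. No member's brightest probe set lay under the floor, and centring shifts the members' ratios alike. The margin of 0.302 also exceeds the ratios of the 5 members within 0.25 of 0, so even a sign change could pass. The exceptions were few. The log2 ratio of Nlrc5 was 0.53 and became -0.02 with the mean of its probe sets, whether or not probe sets of several symbols were let in. It was -0.02 at the median of its probe sets and -0.07 at the median of those past the filter, both chosen after seeing the data. At 1.5-fold in place of 2-fold, 1 member (Tap1) was counted, where 7.86% of all genes past the filter were. The range of the members' ratios was 1.05 and became 0.74 without Tap1, also chosen after seeing the data. The median ratio of the members ran from 0.01 to 0.09 over these alternatives. No paired analysis was possible because each group had 1 array, and no array could be left out.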
